A study of Mus musculus with 9 samples.

Results

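The genes followed here in the RNA of mouse ear epidermis were the Toll-like receptor genes Tlr1 to Tlr9 and Unc93b1, whose product carries the endosomal Toll-like receptors to their compartment. These 10 genes were picked by gene symbol out of 52550 genes listed, and 10 of 10 had a row. RNA sequencing covered 3 groups of 3 libraries each, all from wild type mice of 8 weeks, C57BL/6 per the labels and male C57BL/6J per the methods. VAS + H2O mice had Vaseline on the ears and water by gavage, IMQ + H2O mice had imiquimod cream and water, and IMQ + XYF mice had imiquimod cream and the herbal decoction Xiao-Yin-Fang (XYF). Gavage of 200 µl ran for 10 days and the cream or Vaseline was applied for 5 days, with XYF at 23.3 mg/g. Imiquimod on mouse skin is used as a model of psoriasis-like dermatitis, and every imiquimod library here shares that agent. The methods mention 2 mice as the source of the sheets and leave it unclear if each library had 2. They do not state whether the 3 libraries of a group came from separate animals. A figure caption of the paper gives an n of 3 per group, without saying if n counts animals. So p-values measure the spread between these libraries, which may be technical.

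Toll-like receptors are sensors of microbial molecules that signal through the adaptors Myd88 and Ticam1 to NF-kappaB, AP-1 and interferon regulatory factors. Tlr1, Tlr2, Tlr4, Tlr5 and Tlr6 act at the cell surface on lipoproteins, lipopolysaccharide and flagellin. Tlr3, Tlr7, Tlr8 and Tlr9 act in endosomes on nucleic acids and depend on Unc93b1. Imiquimod is an agonist of Tlr7, so the level of its own receptor gene in the treated tissue is of interest. In skin, keratinocytes are known to express several surface receptors and Tlr3, while Tlr7 and Tlr9 are best known from plasmacytoid dendritic cells and B cells.

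The 2 members that passed a test in any comparison were Tlr2 and Tlr5, and the sequence before their start sites is shown because they moved in opposite directions. Sequences are those of RefSeq for GRCm38.p6, 5′ to 3′ on the gene's strand, and 7 of the 10 members had an entry. Capitals mark matches to the NF-kappaB motif. The Tlr2 stretch is chr3:83841768-83841858 on the minus strand, which leaves out the bases between the 5′ end of the annotated gene and the RefSeq start further downstream, since the annotation gives them to an exon. The Tlr5 stretch is chr1:182954538-182954787 on the plus strand.
Tlr2: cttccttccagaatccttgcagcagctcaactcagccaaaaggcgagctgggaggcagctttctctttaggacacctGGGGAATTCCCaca
Tlr5: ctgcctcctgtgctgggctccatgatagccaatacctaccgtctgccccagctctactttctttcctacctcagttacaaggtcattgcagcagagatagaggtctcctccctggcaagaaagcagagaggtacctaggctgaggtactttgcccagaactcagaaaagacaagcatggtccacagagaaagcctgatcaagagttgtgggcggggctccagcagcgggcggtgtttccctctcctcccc

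The 250 bases before the start of the 7 members were searched on both strands for the NF-kappaB motif, the AP-1 motif TGANTCA, the interferon-response motif (GAAA, any 2 bases, GAAA) and the PU.1 motif GAGGAAGT. Tlr2 held 2 overlapping NF-kappaB matches, which begin 173 and 172 bases before the RefSeq start, and Tlr3 held 1 that begins 211 bases before it. NF-kappaB matches were present in 3.9% of 32851 promoter windows of the same length. Tlr6 held 2 overlapping interferon-response matches before 1 of its 2 starts, Tlr9 held 1 AP-1 match and Tlr1 held 1 PU.1 match before 1 of its 2 starts. These motifs occur in 2.98%, 6.75% and 2.44% of the windows. Tlr5 and Tlr8 held none of the 4 motifs in this window.

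Tlr1 and Tlr6 bind triacyl and diacyl lipoproteins as partners of Tlr2, and their coding sequences are near copies in part. The genes lie 18467 bp apart on the minus strand of chromosome 5. Their coding sequences were 74.8% identical over the aligned bases, and 11.31% of the 100-base windows of Tlr1 occur without a mismatch in Tlr6. The longest shared run has 229 bases, shown here in capitals throughout because reads within it cannot be told apart. In GRCm38 it is chr5:64925537-64925765 in the coding exon of Tlr1 and chr5:64953828-64954056 in that of Tlr6.
Tlr1 and Tlr6: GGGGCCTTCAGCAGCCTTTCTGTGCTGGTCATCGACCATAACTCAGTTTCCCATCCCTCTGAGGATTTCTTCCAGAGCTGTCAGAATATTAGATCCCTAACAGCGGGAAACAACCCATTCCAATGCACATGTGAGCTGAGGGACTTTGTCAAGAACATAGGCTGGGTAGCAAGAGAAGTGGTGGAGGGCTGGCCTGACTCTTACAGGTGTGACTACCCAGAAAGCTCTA

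The sources used here do not give how the counting treated such reads, so the split of counts between Tlr1 and Tlr6 is uncertain. Tlr7 and Tlr8, 40599 bp apart on the X chromosome, were 55.1% identical and shared no window of 100 bases.

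The libraries held 30298275 to 64771160 counts on genes, which the authors deposited as whole numbers without normalization. The 10 members together took 0.002815% to 0.003928% of them, and 6 to 10 members per library had more than 3 counts. Levels are given as counts or as CPM, which are counts scaled to library size with TMM factors over the 9 libraries, and 3 counts correspond to 0.0471 to 0.104 CPM. All 10 keratinocyte markers were detected in every library. Summed markers of neutrophils were 10.96 to 12.7 CPM in VAS + H2O, then 49.4 to 144 in IMQ + H2O, then 62.5 to 90.4 in IMQ + XYF, with Elane at 0 counts in all 9 libraries. Cxcr2, a chemokine receptor, made up 96.5% to 99.7% of this sum in 6 libraries. Without Cxcr2, the sum was 63.7 CPM in IMQ + H2O replicate 3, 34.3 in IMQ + XYF replicate 1, 9.46 in IMQ + XYF replicate 3 and 0.0860 to 1.85 in the other libraries. Summed monocyte and macrophage markers were 208 to 258, 332 to 406 and 289 to 366 CPM in the same order. In bulk sheets, fewer cells of a type and less RNA per cell cannot be told apart.

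Per kilobase of exon, Unc93b1 had the highest mean level of the 10 members in all 3 groups, with 3.20 ± 0.533 CPM per kilobase (SD, n = 3) in VAS + H2O. Tlr5, the receptor of flagellin, was next in VAS + H2O at 2.67 ± 0.0516. Tlr2 at 1.08 ± 0.646 and Tlr3 at 1.04 ± 0.113 followed, and their libraries overlapped. Tlr4, the receptor of lipopolysaccharide, stood at 0.215 ± 0.131, and the lowest 5 members had means of 0 to 0.0685 CPM per kilobase. In that group the libraries of Unc93b1, Tlr5, the Tlr2 and Tlr3 pair, and Tlr4 did not overlap from one step to the next.

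The order per kilobase differed under imiquimod. In IMQ + H2O, Tlr2 stood second at 2.94 ± 0.907 CPM per kilobase, overlapping with Unc93b1 at 3.75 ± 0.535. Tlr3 at 0.989 ± 0.113 and Tlr5 at 0.884 ± 0.0376 came next and overlapped with each other. In IMQ + XYF the same 4 genes held the same order, with 3.66 ± 0.516 for Unc93b1, 3.52 ± 0.401 for Tlr2, 1.06 ± 0.193 for Tlr3 and 0.859 ± 0.166 for Tlr5. Tlr4 followed these 4 genes in all 3 groups. Below it, neighbours in the order overlapped in every group.

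**Figure D1:**
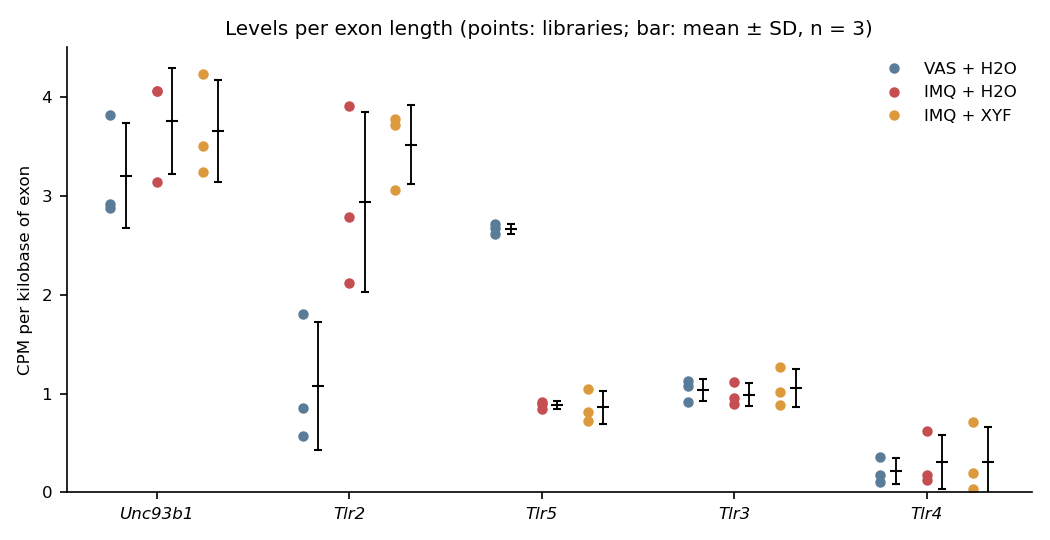
CPM per kilobase of exon (y axis) of the 5 members with the highest mean levels, by group. Each point is a library and the bar beside it gives the mean ± SD (n = 3). Tlr5 stands at 2.67 in VAS + H2O and at 0.884 and 0.859 in the imiquimod groups, while Tlr2 goes from 1.08 to 2.94 and 3.52.

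IMQ + H2O was compared with VAS + H2O to ask what imiquimod changed, and Tlr5 was the 1 member that passed the test. It fell from a mean of 12.8 CPM to 4.24 CPM. Tlr2 was higher in every imiquimod library but missed the threshold, and Tlr3 and Unc93b1 overlapped between the groups. The test was edgeR's quasi-likelihood test on all genes that passed a low-count filter, and genes counted as called when the adjusted p (Benjamini-Hochberg) did not exceed 0.05. Of the 10 members, 5 passed the filter, and of all 18009 genes tested, 22.1% were called, 12.7% higher and 9.41% lower. So 1 of 5 members called lies near that share.

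Tlr5 (chr1:182954788-182976044, plus strand) had 606, 428 and 436 counts in VAS + H2O, then 117, 164 and 190 in IMQ + H2O, then 248, 162 and 121 in IMQ + XYF. Every Vaseline library stood above every imiquimod library, with no overlap. Groups also stood apart for 45.3% of all genes tested in IMQ + H2O against VAS + H2O. That share was 47.5% in IMQ + XYF against VAS + H2O. The means were 12.8 ± 0.247 CPM in VAS + H2O, then 4.24 ± 0.180 in IMQ + H2O, then 4.11 ± 0.796 in IMQ + XYF (SD, n = 3 each). The log2 fold change of IMQ + H2O against VAS + H2O was -1.60 with a standard error of 0.13, a 95% interval of -1.90 to -1.30 and an adjusted p of 0.00310 by edgeR. Without any 1 library it stayed between -1.63 and -1.53, with adjusted p-values of 0.00585 to 0.0173 in these edgeR fits.

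Markers of other tissue differed between the same 6 libraries. The 8 cartilage markers summed to 290 to 653 CPM in VAS + H2O and to 56.4 to 112 in IMQ + H2O, and 7 of the 7 tested were called lower. T cell markers summed to 62.3 to 71.2 CPM in VAS + H2O and to 36.8 to 49.5 in IMQ + H2O, with 5 of 8 called lower. In IMQ + XYF the cartilage markers were at 185 to 304 CPM and the T cell markers at 33.9 to 48.0 CPM. The part of cartilage and of T cells in the Tlr5 difference was not tested.

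Tlr2 (chr3:83836272-83841767, minus strand), the receptor of bacterial lipoproteins, had 81, 179 and 90 counts in VAS + H2O, then 243, 245 and 509 in IMQ + H2O, then 725, 363 and 323 in IMQ + XYF. Scaled to depth these were 1.71, 5.43 and 2.58 CPM, then 8.40, 6.37 and 11.8, then 11.4, 11.2 and 9.21. No imiquimod library fell below a Vaseline library, and VAS + H2O replicate 2 was the highest of its group. The log2 fold change of IMQ + H2O against VAS + H2O was 1.44 with a standard error of 0.45 and an interval of 0.36 to 2.51. It missed the threshold by edgeR with an adjusted p of 0.0631, although the groups did not overlap, as was so for 45.3% of all genes tested.

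The call on Tlr2 turned on the tool and on 1 library. DESeq2, which called 26.1% of the genes it tested, gave an adjusted p of 0.00481, and an edgeR fit of all 9 libraries gave 0.0254. Without VAS + H2O replicate 2 the edgeR log2 fold change was 2.04 with an adjusted p of 0.0355. That library had summed dermal fibroblast markers of 655 CPM, against 79.6 and 112 CPM in the other Vaseline libraries, and their part in its Tlr2 level was not tested. Without IMQ + H2O replicate 3, which had the highest neutrophil markers at 144 CPM, the log2 fold change was 1.18 with an adjusted p of 0.168 by edgeR.

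Tlr3 (chr8:45395665-45411080, minus strand), the sensor of double-stranded RNA, was among the steadiest members. Its counts were 224, 193 and 196 in VAS + H2O, then 168, 191 and 202 in IMQ + H2O, then 338, 214 and 162 in IMQ + XYF. Means were 5.41 ± 0.590, 5.15 ± 0.586 and 5.51 ± 1.01 CPM, and all groups overlapped. The log2 fold change of IMQ + H2O against VAS + H2O was -0.084 with an interval of -0.49 to 0.32. An annotated antisense gene on the opposite strand, Gm45542, covers part of a Tlr3 exon. Gm45542 had 0 counts in 8 libraries and 4 counts in the other.

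Unc93b1 (chr19:3935186-3949340, plus strand) had 547, 291 and 304 counts in VAS + H2O, then 275, 473 and 532 in IMQ + H2O, then 675, 318 and 450 in IMQ + XYF. Its means were 9.71 ± 1.62, 11.4 ± 1.62 and 11.1 ± 1.56 CPM, and the groups overlapped. The log2 fold change of IMQ + H2O against VAS + H2O was 0.22, with an interval of -0.20 to 0.63 and an adjusted p of 0.410 by edgeR.

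**Figure D2:**
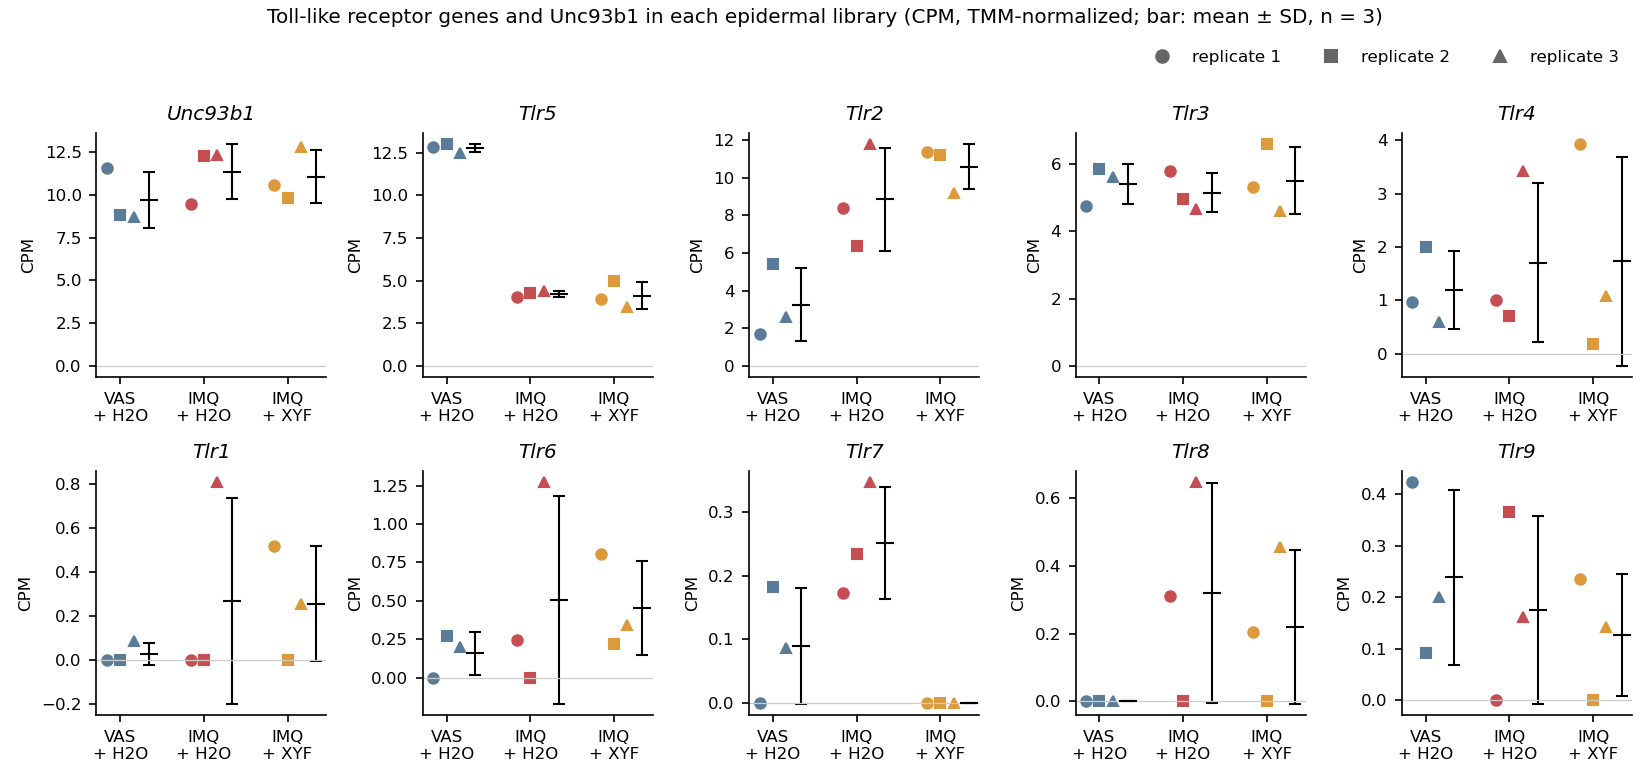
CPM (y axis, a scale of its own in each panel) of the 10 members in the 9 libraries. Each symbol is a library, its shape gives the replicate number, and the bar gives the mean ± SD (n = 3). Tlr5 is the panel in which the Vaseline libraries, near 12.8 CPM, stand clear above all others, and Tlr7 is at 0 in the 3 IMQ + XYF libraries.

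Tlr7 (chrX:167304929-167330558, minus strand), the receptor that imiquimod activates, was close to the limit of detection. It had 0, 6 and 3 counts in VAS + H2O, then 5, 9 and 15 in IMQ + H2O, then 0, 0 and 0 in IMQ + XYF. Every IMQ + H2O library was above every IMQ + XYF library, while VAS + H2O overlapped with both. Pooled over the 3 libraries of a group by their totals, without TMM factors, this was 0.0815 CPM in VAS + H2O with a 95% exact Poisson interval of 0.0373 to 0.155, and 0.255 in IMQ + H2O with one of 0.171 to 0.366. These intervals cover counting error only.

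For the count of 0 in IMQ + XYF, a floor of 3 counts corresponds to a Tlr7 level of 0.0226 CPM over the group. The upper limit of the exact Poisson interval there was slightly higher, at 0.0278 CPM. The pooled Tlr7 level in IMQ + H2O was 11.3-fold the floor over the IMQ + XYF group. This ratio leaves out the counting error of IMQ + H2O, so it is not a lower bound. Without IMQ + XYF replicate 1, the deepest library, the ratio was 5.79-fold. The gene did not pass the low-count filter in any comparison. With no filter, its unadjusted p between the imiquimod groups was 0.00196 and its adjusted p was 0.514 by edgeR, while DESeq2 gave no adjusted p. Of 1523 genes under the filter with at least 3 counts in every IMQ + H2O library, 18, or 1.18%, were at 0 in every IMQ + XYF library. In the reverse direction it was 40 of 1838 genes, or 2.18%.

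Markers of the cells best known for Tlr7 were uneven. Of the 7 plasmacytoid dendritic cell markers, Cd300c had 0 counts in all 9 libraries, Klk1 at most 2, Siglech at most 12 and Pacsin1 at most 25, while Cox6a2 had 0 to 132, Ccr9 243 to 620 and Smim5 130 to 700. Their sum was 17.1 to 23.3 CPM in VAS + H2O, then 14.6 to 19.7 in IMQ + H2O, then 16.0 to 19.4 in IMQ + XYF. The 6 B cell markers summed to 0.545 to 1.08 CPM over the 9 libraries, with Ms4a1 at 0 throughout. Ccr9 and Smim5 made up 77.5% to 99.2% of the plasmacytoid sum, so the sum says little of the other 5 markers, whose own sum was 0.138 to 4.22 CPM. The part of these cells in the Tlr7 counts was not tested.

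Tlr8 (chrX:167242696-167264329, minus strand), another sensor of single-stranded RNA, had 0 counts in all VAS + H2O libraries. It had 9, 0 and 28 counts in IMQ + H2O and 13, 0 and 16 in IMQ + XYF. Replicate 2 of each imiquimod group was at 0, so the groups overlapped. The pooled level was 12.0-fold the floor over the Vaseline group in IMQ + H2O and 8.03-fold in IMQ + XYF. These ratios leave out the counting error of the imiquimod groups. The ratio for IMQ + H2O was 4.74-fold without its replicate 3, 18.4-fold without its replicate 2 and 7.13-fold without VAS + H2O replicate 1. The ratio for IMQ + XYF was 4.88-fold without its replicate 3 and 4.78-fold without VAS + H2O replicate 1. Neither difference was tested after the filter, and with no filter the adjusted p-values by edgeR were 0.127 and 0.123.

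Tlr9 (chr9:106222598-106226883, plus strand), the sensor of unmethylated CpG DNA, had 20, 3 and 7 counts in VAS + H2O, then 0, 14 and 7 in IMQ + H2O, then 15, 0 and 5 in IMQ + XYF. The 3 groups overlapped, and Tlr9 passed the filter in no comparison. With no filter its adjusted p was 0.853 for IMQ + H2O against VAS + H2O by edgeR.

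Tlr4 (chr4:66827584-66930284, plus strand) varied more within groups than between them. Its counts were 46, 66 and 21 in VAS + H2O, then 29, 27 and 148 in IMQ + H2O, then 250, 6 and 38 in IMQ + XYF. IMQ + H2O replicate 3 and IMQ + XYF replicate 1 stood above all other libraries. The log2 fold change of IMQ + H2O against VAS + H2O was 0.52 with an interval of -1.13 to 2.17, and it was -0.50 without IMQ + H2O replicate 3.

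Tlr1 and Tlr6 had most of their counts in the same 2 libraries. Tlr1 had 0, 0 and 3 counts in VAS + H2O, then 0, 0 and 35 in IMQ + H2O, then 33, 0 and 9 in IMQ + XYF. Tlr6 had 0, 9 and 7, then 7, 0 and 55, then 51, 7 and 12. Both genes are highest in IMQ + H2O replicate 3 and IMQ + XYF replicate 1, and the shared run printed above bears on how the counts divide between them. In these 2 libraries, the summed neutrophil markers were 144 and 90.4 CPM, the highest of the 9 with and without Cxcr2. Their summed monocyte and macrophage markers were 337 and 366 CPM, below the 406 CPM of IMQ + H2O replicate 2, and 14 of 14 of these markers had more than 3 counts, against 10 to 13 in the other libraries. The part of these cells in the Tlr1, Tlr4 and Tlr6 levels was not tested.

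**Figure D3:**
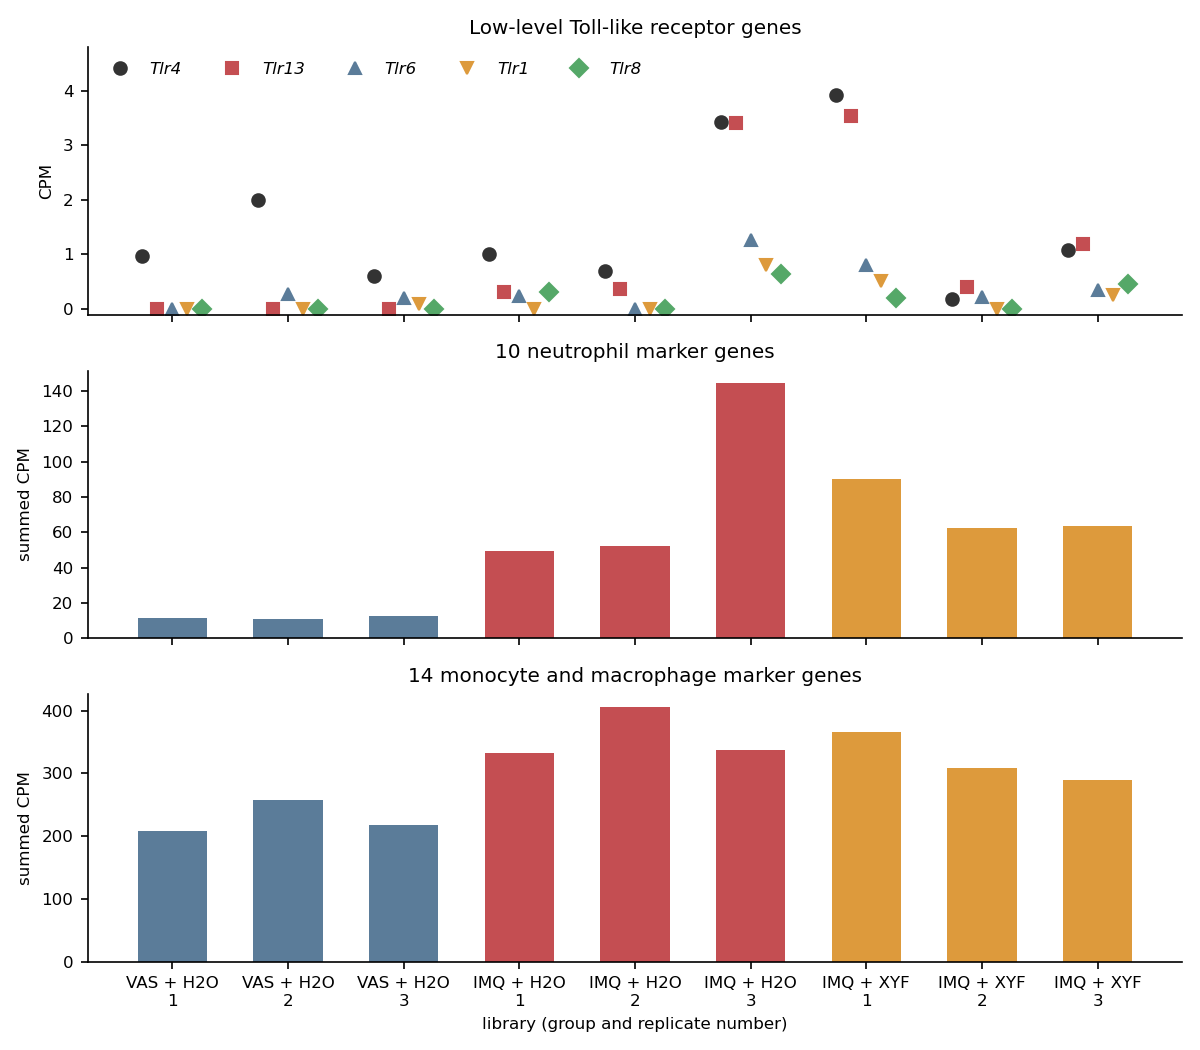
Upper panel, CPM of Tlr4, Tlr13, Tlr6, Tlr1 and Tlr8 in each library; middle and lower panels, summed CPM of 10 neutrophil and 14 monocyte and macrophage marker genes. IMQ + H2O replicate 3 and IMQ + XYF replicate 1 have the highest Tlr4 and Tlr13 levels and the highest neutrophil sums, at 144 and 90.4 CPM.

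What the decoction changed under imiquimod was asked by setting IMQ + XYF against IMQ + H2O, and 0 of the 7 members tested by edgeR were called. None of the 7 had an unadjusted p under 0.05, and DESeq2 called 0 as well, against 0.968% of all genes it tested. Over all 17793 genes tested, 0.0281% were called and 966 genes, or 5.43%, had an unadjusted p under 0.05. Intervals of the log2 fold change show what these libraries could resolve. They ran from -0.41 to 0.35 for Unc93b1, from -0.47 to 0.39 for Tlr5, from -0.32 to 0.53 for Tlr3 and from -0.29 to 0.82 for Tlr2. For the sparse members they were wide, from -2.30 to 2.40 for Tlr4, from -2.86 to 2.59 for Tlr6 and from -3.54 to 2.46 for Tlr8.

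Leaving out IMQ + H2O replicate 3 and IMQ + XYF replicate 1, a step chosen after seeing the data, again left 0 members called by edgeR. The groups of none of the 7 members tested stood apart without overlap, against 10.7% of all genes tested. Tlr7, which was not tested, is the 1 member whose counts stood apart between these groups.

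The comparison of IMQ + XYF with VAS + H2O shares the Vaseline libraries with the first, so the values below are not independent of it. Of 6 members tested, Tlr2 was called higher and Tlr5 lower, against 28.7% of 17954 genes called, 16.7% higher and 12% lower. The imiquimod and Vaseline libraries of both genes did not overlap, as was so for 47.5% of all genes. Tlr5 had a log2 fold change of -1.64 with a standard error of 0.17 and an adjusted p of 0.00140 by edgeR. Tlr2 had 1.72 with a standard error of 0.41, an interval of 0.75 to 2.68 and an adjusted p of 0.0213 by edgeR. The Tlr2 call was lost without VAS + H2O replicate 3 or without any 1 of the IMQ + XYF libraries, at adjusted p-values of 0.0520 to 0.0654, with log2 fold changes of 1.60 to 1.81. Without VAS + H2O replicate 2 it was 2.31 with an adjusted p of 0.00486.

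The other members tested against VAS + H2O were not called. Tlr3 had a log2 fold change of 0.027 with an interval of -0.41 to 0.47, and Unc93b1 had 0.19 with one of -0.21 to 0.59. Tlr4 had 0.58 with an interval of -1.64 to 2.80, which was -0.87 without IMQ + XYF replicate 1. Tlr6 had 1.64 with an interval of -0.67 to 3.95 and an adjusted p of 0.249 by edgeR.

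**Figure D4:**
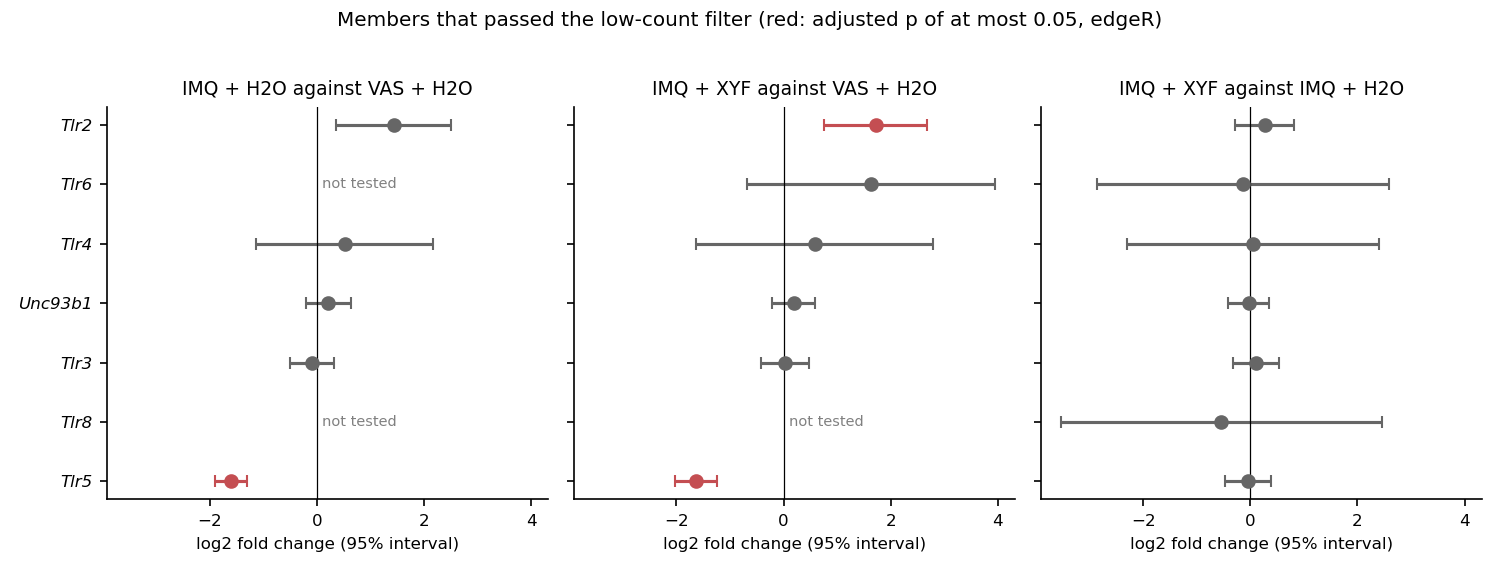
Log2 fold changes (x axis) with 95% intervals of the members that passed the low-count filter in 3 comparisons, with red for an edgeR adjusted p of at most 0.05. Tlr5 is red at -1.60 and -1.64 against VAS + H2O and Tlr2 at 1.72 in IMQ + XYF, while no member is red between the imiquimod groups.

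The mouse has 3 further Toll-like receptor genes. Tlr13, an endosomal sensor of bacterial ribosomal RNA, had 0 counts in all VAS + H2O libraries, 9, 14 and 147 in IMQ + H2O and 225, 13 and 42 in IMQ + XYF. Every imiquimod library had more Tlr13 counts than every Vaseline library. The pooled level was 55.01-fold the floor over the Vaseline group in IMQ + H2O and 77.5-fold in IMQ + XYF. These ratios leave out the counting error of the imiquimod groups. One library carried most of each. The ratios were 12.1-fold without IMQ + H2O replicate 3 and 29.7-fold without IMQ + XYF replicate 1. Without VAS + H2O replicate 1 they were 32.7-fold and 46.2-fold. Tlr13 passed the low-count filter only through the imiquimod libraries, so no p is given for it. The highest Tlr13 counts fell in the same 2 libraries as those of Tlr4, and the part of the neutrophil and macrophage markers there was not tested. Tlr11 had at most 4 counts and Tlr12 at most 5 in any library, so their levels could not be compared at this depth.

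By the root mean square difference of centred log2 CPM over the 9 libraries, the 3 genes of 14602 with patterns nearest to Tlr5 were S100a3 at 0.18, Slc6a2 at 0.20 and Zfr2 at 0.20. S100a3 had 4.78 ± 0.440, 1.34 ± 0.188 and 1.45 ± 0.255 CPM, in the order VAS + H2O, IMQ + H2O, IMQ + XYF. Slc6a2, the noradrenaline transporter, had 52.8 ± 7.17, 17.2 ± 3.64 and 17.3 ± 0.775 CPM. The genes nearest to Tlr2 were Lyve1 at 0.31, Gm14221 at 0.31 and Icam1 at 0.33. Icam1, an adhesion molecule for leukocytes, had 31.1 ± 13.6, 67.9 ± 5.49 and 76.5 ± 13.3 CPM. Tlr7 lay under the level required for this measure.

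The pathway around the receptors was described with 8 lists of 98 genes in all. In IMQ + H2O against VAS + H2O, 84 were tested, 22 were called higher and 1 lower, against 12.7% and 9.41% of all genes. Tlr13, the 1 gene tested although at 0 in every Vaseline library, is among those called higher in both comparisons with VAS + H2O. Other listed genes were near 0 there, such as Clec4e with 2, 0 and 0 counts. It had 9, 18 and 447 in IMQ + H2O and 505, 18 and 53 in IMQ + XYF. Such genes could pass the filter only through the imiquimod libraries, which favours higher calls and higher medians against VAS + H2O. The median log2 fold change of the tested genes was 0.29, beside -0.029 over all genes. In IMQ + XYF against VAS + H2O, 86 were tested with 31 higher and 4 lower, against 16.7% and 12% of all genes, and the median was 0.31 beside -0.038. Between the imiquimod groups, 87 were tested and 0 were called by edgeR, with a median of -0.011 beside 0.00058 over all genes.

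Among 18 adaptors and kinases, 4 of 17 tested were called higher under imiquimod, against 12.7% of all genes. Myd88, the adaptor of every Toll-like receptor but Tlr3, had 46.8 ± 6.93 CPM with Vaseline and 94.6 ± 8.10 with imiquimod and water. This log2 fold change was 1.004 with a standard error of 0.12 and an adjusted p of 0.00709 by edgeR. In IMQ + XYF it stood at 89.6 ± 7.95 CPM. The kinase Tbk1 and the ubiquitin ligase Traf3, both on the branch to interferon, had log2 fold changes of 0.49 and 0.81 with adjusted p-values of 0.0144 and 0.0165 by edgeR. The Tbk1 call was lost in 1 of 6 fits that each left out a library, at 0.0508.

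Traf3 was the 1 of 85 pathway genes, or 1.18%, that DESeq2 called between the imiquimod groups, near its share of 0.968% over all genes. It stood at 26.4, 29.1 and 24.7 CPM in IMQ + H2O and at 19.6, 20.5 and 18.6 in IMQ + XYF, without overlap. The log2 fold change was -0.44 with a standard error of 0.10, an adjusted p of 0.460 by edgeR and one of 0.0494 by DESeq2.

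Among 15 co-receptors and trafficking factors, all tested, 2 rose and 1 fell under imiquimod, which lies near the 12.7% and 9.41% over all genes. Lrrc59, which takes part in the trafficking of the nucleic acid sensors, had 102 ± 5.86 CPM in VAS + H2O and 236 ± 45.2 in IMQ + H2O, a log2 fold change of 1.20 with an adjusted p of 0.00663 by edgeR. Hsp90b1, the chaperone that folds Toll-like receptors, had 222 ± 34.3 and 422 ± 50.9 CPM, a log2 fold change of 0.91. Lbp, the binding protein that hands lipopolysaccharide on to Cd14 and Tlr4, fell from 9.95 ± 3.03 to 4.87 ± 0.290 CPM. Its log2 fold change of -1.05 had an adjusted p of 0.0249 by edgeR, which was lost in 4 of 6 fits that each left out a library, at up to 0.0711. Of 7 listed genes that act in the processing of endosomal receptors, 2 were called higher, against 12.7% of all genes. These were the proteases Ctsb and Lgmn, with log2 fold changes of 0.84 and 0.999 and adjusted p-values of 0.00924 and 0.00975 by edgeR.

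Of 10 transcription factors tested, 2 were called higher, against 12.7% of all genes. The list's median log2 fold change was -0.22, beside -0.029 over all genes. The called genes were the NF-kappaB subunits Nfkb1, with a log2 fold change of 0.59, and Rela with 0.24. Rel, another subunit, was not called, at 94.7 ± 18.2 CPM in VAS + H2O and 99.4 ± 9.94 in IMQ + H2O. The Rela call, with an adjusted p of 0.0468 by edgeR, was lost in 6 of 6 fits that each left out a library. Of 12 inhibitors tested, 4 were called higher, against 12.7% of all genes. Zc3h12a, an RNase that degrades cytokine messages, rose from 81.8 ± 27.1 to 272 ± 24.4 CPM, a log2 fold change of 1.72 with an adjusted p of 0.00958 by edgeR. Irak3 and Tnip1 had log2 fold changes of 0.77 and 0.46, and these calls were lost in 2 and 5 of 6 such fits, at adjusted p-values up to 0.0554 and 0.108 by edgeR. Of the 8 induced cytokines and costimulators tested, Cxcl10 alone was called, near the 12.7% of all genes called higher. Its log2 fold change was 1.67 with an adjusted p of 0.0485 by edgeR. The Cxcl10 call was lost in 6 of 6 such fits, at 0.0569 to 0.117.

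Other pattern recognition receptors held 6 called genes of 14 tested, all higher, against 12.7% of all genes called higher. Nod2, a cytosolic sensor of muramyl dipeptide, rose from 14.5 ± 4.33 to 86.4 ± 2.91 CPM under imiquimod and stood at 77.1 ± 15.4 in IMQ + XYF. Its log2 fold change of 2.57 had a standard error of 0.21 and an adjusted p of 0.00338 by edgeR. Mb21d1 and Tmem173, the DNA sensor cGAS and its partner STING, had log2 fold changes of 1.54 and 1.62 with adjusted p-values of 0.00688 and 0.0193 by edgeR. The Tmem173 call was lost in 2 of 6 fits that each left out a library, at up to 0.0663. In IMQ + XYF against VAS + H2O, this list had 8 of 15 tested genes called higher, against 16.7% of all genes. The list holds Clec4d and Clec4e, which were near 0 counts with Vaseline. The 4 pathway genes called lower there were Irf3, Irf5, Tollip and Cyld, named after their values were seen, at log2 fold changes of -0.27, -0.59, -0.43 and -0.39. Leaving out each library in turn lost the Irf3 call in 6 of 6 edgeR fits, Cyld in 5 and Tollip in 2, at adjusted p-values up to 0.107, and the Irf5 call in 0.

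**Figure D5:**
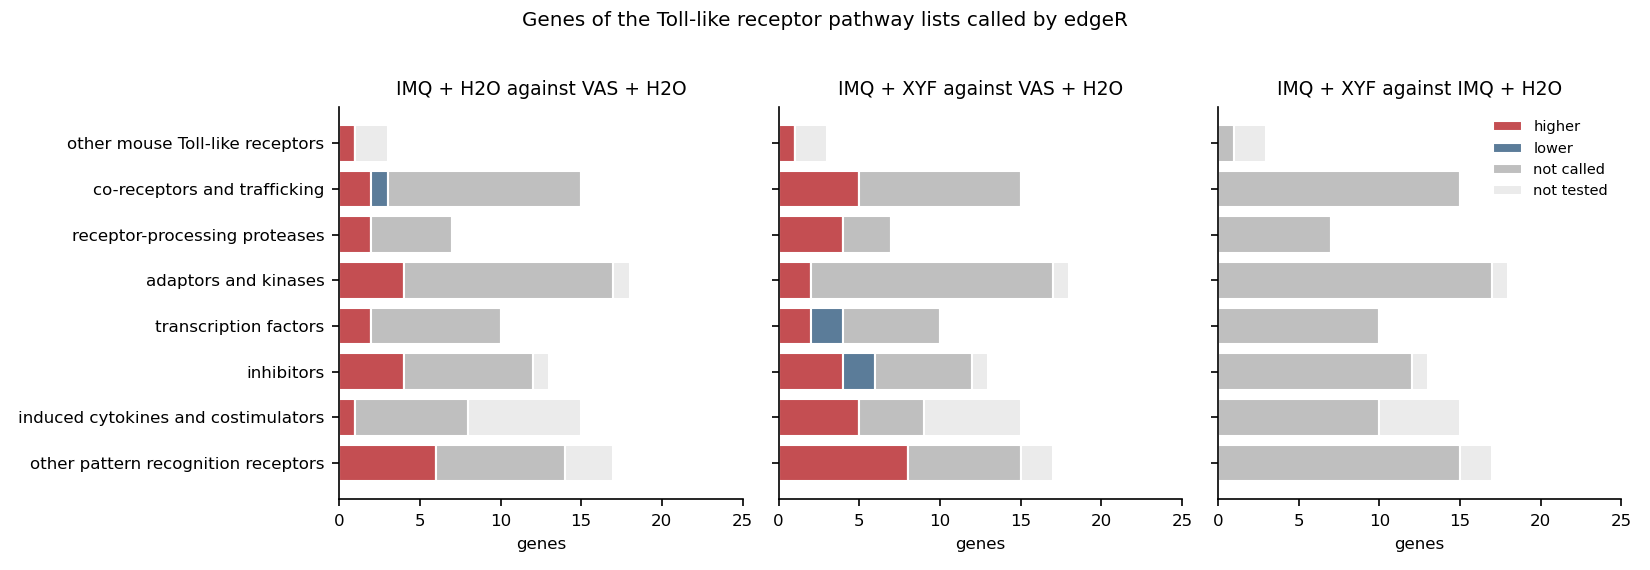
Number of genes (x axis) in each of the 8 pathway lists that edgeR called higher, called lower, did not call or did not test, in 3 comparisons. Against VAS + H2O, 22 genes were higher in IMQ + H2O and 31 in IMQ + XYF, and 0 were called between the imiquimod groups.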

How the data were processed

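RNA sequencing of epidermal ear sheets gave 9 libraries in 3 groups, and groups were taken from the deposited labels. The authors aligned reads with STAR 2.5 to GRCm38, per the submitters' processing notes, which also name DESeq 1.22.1. They deposited whole-number counts per gene without normalization. The tool and strand setting of the counting are not given in the sources used here, so whether values are rounded estimates or hold antisense reads was not tested. Exon lengths came from GENCODE M21. Between replicates, chi-square per gene was 26.1 to 82.7, so no library was a copy of another.

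Each comparison was fitted on its own 6 libraries with edgeR 4.0.16 in R 4.3.3 (TMM, filterByExpr, glmQLFit, glmQLFTest, Benjamini-Hochberg over all genes tested). Standard errors were derived from the test statistic. The fits were checked on simulated counts. Intervals of log2 fold changes were built from these edgeR standard errors, which include the spread between libraries. Exact Poisson intervals of pooled levels cover counting error only. Floors were 3 counts, and folds over a floor leave out the counting error of the higher group. Members and lists were chosen with earlier results of these data known. From each pathway list, up to 3 genes with the smallest adjusted p among those called in IMQ + H2O against VAS + H2O were named, plus any called between the imiquimod groups. For likeness, the 3 genes nearest over 9 libraries were taken among genes with a mean log2 CPM of at least 0, for Tlr7 and each member called in any comparison.

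Alternatives were DESeq2 1.42.0, RLE size factors, no filter, at least 10 counts in every library, 1 fit of all 9 libraries, the replicate number as a block, the DEG rule, which also asks for a log2 change of 1 or more in size, and each library left out in turn. Folds over a floor without each library, marker sums without their leading genes and the alternatives for Irf3, Irf5, Tollip and Cyld were added after seeing the data.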

Additional observations from a re-analysis of the deposited data

How the results depend on the processing

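The lower level of Tlr5 against VAS + H2O kept its direction and its call under every alternative run, in both imiquimod groups. The count of members called in IMQ + H2O against VAS + H2O was 1, and it was 2 with DESeq2 and with all 9 libraries in 1 fit, where Tlr2 was added. It ranged from 1 to 2 when each library was left out. In IMQ + XYF against VAS + H2O the count was 2 and ranged from 1 to 2. Between the imiquimod groups it was 0 throughout, and the signs of log2 fold changes near 0 were not stable. When each library was left out, they ran from -1.43 to 1.07 for Tlr4, -0.88 to 2.06 for Tlr6, -1.44 to 0.61 for Tlr8, -0.042 to 0.21 for Tlr3, -0.20 to 0.071 for Tlr5 and -0.15 to 0.047 for Unc93b1. Without IMQ + H2O replicate 3 and IMQ + XYF replicate 1 together, chosen after seeing the data, they were -0.41 for Tlr4, 0.022 for Tlr5, 0.68 for Tlr8 and 0.052 for Unc93b1. Against VAS + H2O, Tlr4 ran from -0.50 to 1.11 in IMQ + H2O and from -0.87 to 1.16 in IMQ + XYF, and Tlr3 from -0.10 to 0.14 in IMQ + XYF. Pathway genes called against VAS + H2O were 22 higher and 1 lower in IMQ + H2O and 31 higher and 4 lower in IMQ + XYF. When each library was left out, the totals were 13 to 22 and 22 to 28. They were 12 and 20 with a log2 change of 1 or more in size required, and 1 with DESeq2 between the imiquimod groups. The cause was not tested.

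Same-numbered libraries correlated at -0.133 to 0.105 in their deviations from group means, so the numbers did not pair them. With the replicate block, 22 pathway genes were called in IMQ + XYF against VAS + H2O, and between the imiquimod groups Tlr4 was -0.46 and Tlr6 was 0.58. Not every library correlated best with its own number. Under the block the count of members called did not change in any comparison. Members below about 0.1 CPM in a library rest on a few counts, and 3 libraries a group limit what can be called.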
